A study of Mus musculus with 42 samples.

Results

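The matrix metalloproteinases (MMPs), the ADAM and ADAMTS proteases and the tissue inhibitors of metalloproteinases (TIMPs) were followed through skin tumours of the mouse. Members were all genes whose annotated symbol is Mmp, Timp, Adam or Adamts directly followed by a number. On the 2 array designs of the series there were 72 such genes among 19667 with a symbol: 21 Mmp, 4 Timp, 32 Adam and 15 Adamts genes. Of these, 53 were on both designs, and 16, Adamts4 among them, were only on the second. On the first design, which carried all labelled groups, 51 of 56 members had enough values to be tested (17 Mmp, 4 Timp, 23 Adam, 7 Adamts). The other 5 (Mmp1a, Mmp1b, Adam11, Adam23 and Adam26a) had values in 15 to 21 of 31 replicates and were not tested.

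Each sample was 1 whole tissue hybridised on a 2-colour oligonucleotide array against a common pool, a universal mouse reference RNA. The groups were 6 squamous cell carcinomas, 10 papillomas labelled high-risk, 9 papillomas labelled low-risk (10 arrays, 1 tumour having been hybridised again with swapped dyes) and 6 normal skins. All tumours came from female Sencar mice, a strain bred for sensitivity to skin carcinogens, that were 7 to 8 weeks old when DMBA, a mutagen, started the tumours, and TPA, a phorbol ester, was the promoter. Normal skins were untreated, and their labels give neither strain nor age nor sex, so tumour and normal skin can differ in more than the tumour. A further 10 papillomas of the same strain, sex and treatment with no risk label were on the second design and entered no comparison. A value is the log2 ratio of sample over reference, centred on the median of its array. The direction of the ratio is likely from the dyes in the labels rather than stated, and a ratio ranks samples for 1 gene, not genes against each other.

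MMPs are secreted or membrane-bound enzymes with a zinc ion at the active site that cut collagens, laminins and other matrix proteins, and most are made as inactive proenzymes. TIMPs bind the active enzymes and block them. ADAMs are membrane proteins, some of which cut other membrane proteins loose, among them ligands of the epidermal growth factor receptor, while others serve sperm and egg. ADAMTS enzymes are secreted and cut proteoglycans, procollagens and other matrix proteins. In skin the interstitial MMPs are known for induction in wounds and by phorbol esters, through transcription factors of the AP-1 family.

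A run of 10 neighbouring Mmp genes lies on mouse chromosome 9, in the order Mmp13, Mmp12, Mmp1b, Mmp3, Mmp1a, Mmp10, Mmp8, Mmp27, Mmp20 and Mmp7, and 9 of them were members. TPA acts on genes in part through the AP-1 site, TGAGTCA on one strand and TGACTCA on the other. The promoters of the members were therefore searched for these 7 letters on both strands. A RefSeq promoter (mouse build GRCm38.p6, 250 bases before to 50 after the start of a gene) was at hand for 43 of the 72 members. Of 9 genes of the run, 7 had the letters, against 3 of 34 other members (Adam1b, Adam19 and Adam29). Over all genes 1709 of 32851 promoters, or 5.20%, held them, and 10 of the 48 promoters of members, or 20.8%. The promoter of Mmp3, the member with the smallest p-value in all 3 comparisons of a tumour group with normal skin, is shown whole, and of the other 6 the letters with 20 bases on each side. Capitals mark the AP-1 letters. The 7 sequences lie at chr9:7445572-7445871 (Mmp3, plus strand), chr9:7502259-7502305 (Mmp10, plus), chr9:7272459-7272505 (Mmp13, plus), chr9:7347310-7347356 (Mmp12, plus), chr9:7692007-7692053 (Mmp7, plus), chr9:7464048-7464094 (Mmp1a, plus) and chr9:7388093-7388139 (Mmp1b, minus).
Mmp3: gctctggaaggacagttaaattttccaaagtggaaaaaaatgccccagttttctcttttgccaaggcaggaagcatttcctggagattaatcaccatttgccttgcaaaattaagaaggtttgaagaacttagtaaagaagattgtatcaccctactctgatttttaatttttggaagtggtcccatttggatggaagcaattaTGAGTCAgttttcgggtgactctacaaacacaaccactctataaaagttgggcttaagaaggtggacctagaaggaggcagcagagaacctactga
Mmp10: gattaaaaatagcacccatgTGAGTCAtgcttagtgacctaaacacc
Mmp13: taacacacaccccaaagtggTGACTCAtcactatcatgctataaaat
Mmp12: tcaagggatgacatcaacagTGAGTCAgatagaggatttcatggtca
Mmp7: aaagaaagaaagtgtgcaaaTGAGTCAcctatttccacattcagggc
Mmp1a: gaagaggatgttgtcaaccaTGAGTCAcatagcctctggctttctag
Mmp1b: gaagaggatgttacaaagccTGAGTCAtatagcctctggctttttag
The letters began 46 bases before the start of Mmp3, 63 before Mmp10 and Mmp7, 35 before Mmp13, 44 before Mmp12, 73 before Mmp1a and 93 before Mmp1b. A match describes the sequence and is not a measured binding site, and the windows of Mmp8 and Mmp20 did not hold these letters.

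The arrays fell into 5 sets by which probes were empty, and these sets coincide in part with the groups. Of the 6 carcinomas, 2 were in set C and 4 in set D. High-risk papillomas were spread over set A with 1, set C with 4, set D with 1 and set E with 4. Set B had 6 of the low-risk papillomas and set D the other 3, while of the normal skins 4 were in set A and 1 each in sets C and D. The median SD of the ratios of an array was 0.70 in set C and 1.59 in set E. The ratios of carcinoma 6 and of normal skin 1, which share set C, were nearly the same: over 35 member probes the median gap was 0.09, and across all probes, which are not independent, the correlation was 0.984. The label of one of these arrays may therefore be wrong. The 2 arrays of the swapped tumour differed by a median of 1.45 over 50 member probes and correlated at 0.306, so the values leave in doubt that they held the same tumour. The 32 labelled arrays had values for 16286 to 21494 of 21997 probes, and their number limits the precision. Keratinocyte markers lay above the reference in every group, with means per sample of 0.67 to 2.01 in carcinomas, 1.32 to 2.68 in high-risk papillomas, 0.75 to 2.83 in low-risk papillomas and 0.88 to 1.82 in normal skins (6 of 8 markers tested). Nothing in the labels says that tumours came from separate animals, and some share a code, so the p-values measure the spread between these samples.

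Against normal skin, few members passed the test, and Mmp3 was the one that passed in both papilloma groups. Groups were compared with limma in 1 model of the 4 groups, with Benjamini-Hochberg adjustment over 18904 probes and a threshold of 0.05. In low-risk papillomas Mmp3, Mmp20, Adam24 and Adamts5 rose and none fell, or 4 of 51 members (7.84%), where 7.59% of all probes passed (3.97% higher and 3.62% lower). In high-risk papillomas Mmp3 rose and Timp3 fell, or 2 of 51 (3.92%), where 5.03% of all passed (2.59% higher and 2.44% lower). Neither share is far from its background. In carcinomas limma called 0 of 51 members, where 1.16% of all passed (0.259% higher and 0.905% lower), with 5 members (9.8%) at an unadjusted p under 0.05, where 11.3% of all had one. The median log2 difference of the members was 0.17 in carcinomas, -0.10 in high-risk and 0.09 in low-risk papillomas, each against normal skin, where that of all probes was 0.00, 0.00 and -0.02. The 3 comparisons share the same 6 normal skins.

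**Figure D1:**
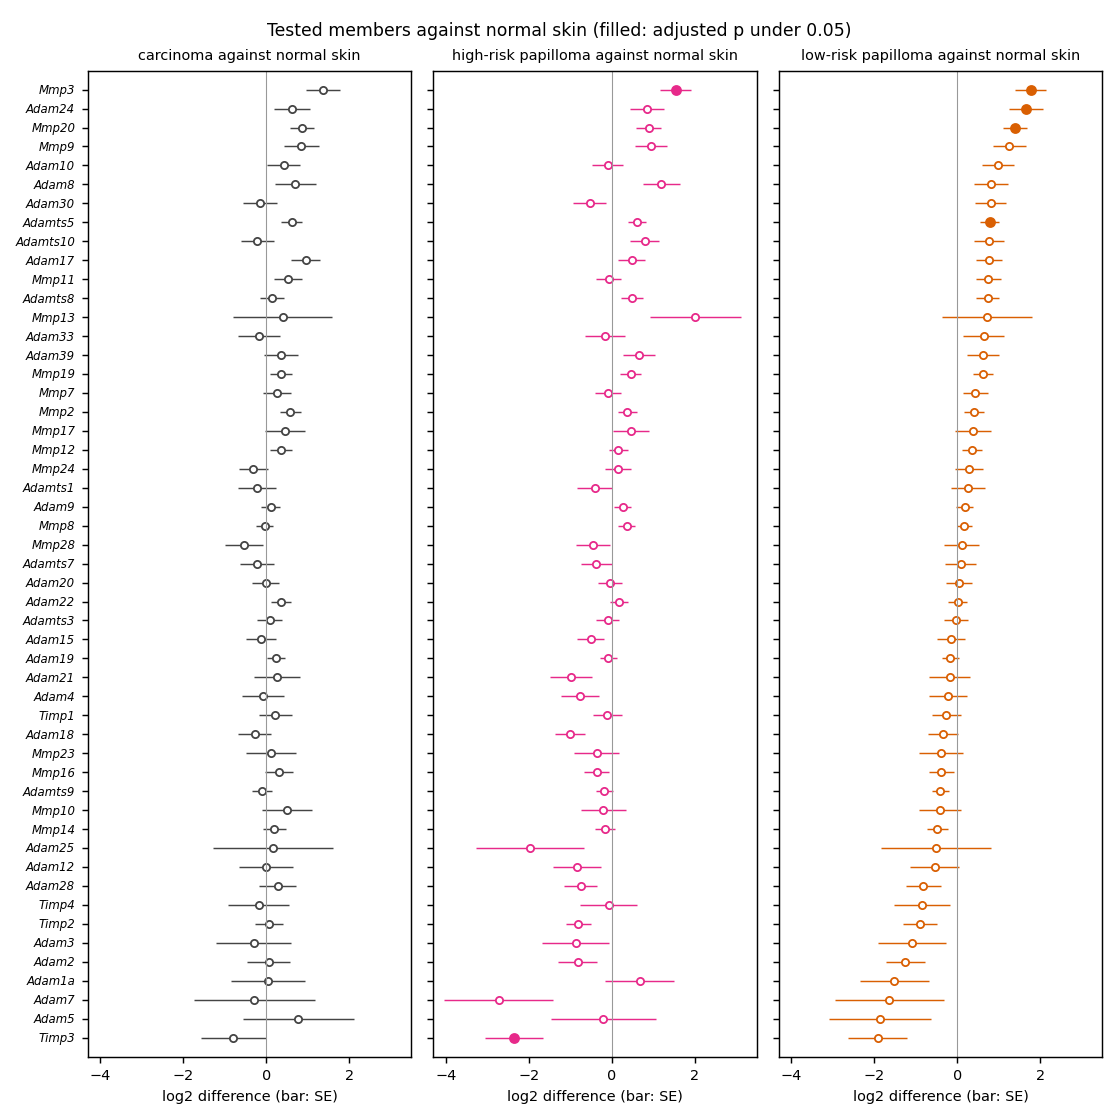
Log2 difference from normal skin of the 51 tested members in carcinomas (left), high-risk papillomas (middle) and low-risk papillomas (right), ordered by the low-risk difference. Horizontal bars are standard errors and filled points passed an adjusted p of 0.05: Mmp3, Adam24, Mmp20 and Adamts5 on the right, Mmp3 and Timp3 in the middle and none on the left.

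Of 3 stromelysins tested, Mmp3 was called. Mmp3, stromelysin-1, cuts proteoglycans, laminin and several collagens and activates other proMMPs. Its log2 level had a lowest, median and highest value of 0.16, 0.97 and 1.66 in carcinomas, 0.15, 1.13 and 2.36 in high-risk papillomas, 0.25, 1.57 and 2.35 in low-risk papillomas and -1.37, -0.50 and 0.72 in normal skins. All tumours lay above the reference and 4 of the 6 normal skins below it, and the ranges overlapped only through the low tumours and normal skins 1 and 2. The means were 0.99 ± 0.57 (SD, n = 6) in carcinomas, 1.18 ± 0.80 (n = 10) in high-risk papillomas, 1.404 ± 0.711 (n = 9) in low-risk papillomas and -0.37 ± 0.78 (n = 6) in normal skins. The log2 difference from normal skin was 1.77 ± 0.38 (SE) in low-risk papillomas, a 3.41-fold rise with 9 of 9 tumours above the normal mean (limma adjusted p = 0.00417). It was 1.54 ± 0.37, or 2.91-fold, in high-risk papillomas, with 10 of 10 above that mean (limma adjusted p = 0.0132). In carcinomas Mmp3 did not pass (1.36 ± 0.41, 6 of 6 above the normal mean, limma adjusted p = 0.106), and no 2 tumour groups differed past the threshold in it, the largest difference being that of carcinomas from low-risk papillomas at -0.41 ± 0.38 (limma adjusted p = 0.628).

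The values of Mmp3 moved with the array set. In set A the single high-risk papilloma had 1.36, against -1.37 to -0.26 in 4 normal skins. In set D the 4 carcinomas had 0.80 to 1.66, the high-risk papilloma 0.90, the 3 low-risk papillomas 0.92 to 1.57 and the normal skin 0.30. In set C the 2 carcinomas had 0.16 and 0.67 and the 4 high-risk papillomas 0.15 to 0.82, against 0.72 in normal skin 1, so the direction turned there, on a single normal skin whose label is in doubt. With the set as a block the difference from normal skin was 0.87 in low-risk papillomas (limma adjusted p = 0.852) and 0.89 in high-risk papillomas (adjusted p = 0.385). The high-risk difference was 1.01 without set E (adjusted p = 0.218) and 1.34 without normal skin 3 (adjusted p = 0.0552).

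The other stromelysins did not pass in any comparison. Mmp10, stromelysin-2, which migrating keratinocytes make at wound edges, had -1.34, 0.20 and 0.88 (lowest, median, highest) in 4 carcinomas, -1.88, -0.79 and 1.09 in 6 high-risk papillomas, -2.99, -0.82 and 1.04 in 9 low-risk papillomas and -0.97, -0.47 and -0.21 in 5 normal skins. Its normal skins lay close together and the tumours on both sides of them. Against normal skin the difference was 0.51 ± 0.60 in carcinomas, -0.20 ± 0.54 in high-risk papillomas and -0.42 ± 0.50 in low-risk papillomas (limma adjusted p = 0.876, 0.886 and 0.668). Mmp11, stromelysin-3, which stromal cells make, had its largest difference between high-risk and low-risk papillomas, at -0.82 (limma adjusted p = 0.125).

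Collagenases cut fibrillar collagen, and Mmp13, collagenase-3, is the main interstitial collagenase of rodents. Its level was 0.78, 0.96 and 3.75 (lowest, median, highest) in carcinomas, 0.07, 1.42 and 10.05 in 9 high-risk papillomas, 0.19, 1.99 and 3.76 in low-risk papillomas and 0.30, 1.29 and 2.48 in normal skins. Every sample lay above the reference, and 3 high-risk papillomas lay above every other sample, 2 of set E with 8.29 and 10.05 and the one of set A with 4.86. The third measured tumour of set E had 2.36. High-risk papillomas averaged 3.22 ± 3.71 (SD, n = 9), so the difference of 2.01 ± 1.10 from normal skin did not pass (limma adjusted p = 0.315), and the 4 of set C had 0.07 to 1.39. Low-risk papillomas differed by 0.72 ± 1.10 and carcinomas by 0.39 ± 1.20 (limma adjusted p = 0.743 and 0.978). Mmp8, the collagenase of neutrophils, had its largest difference, -0.40 ± 0.21, in carcinomas against high-risk papillomas (limma adjusted p = 0.512). Mmp1a and Mmp1b, which were grouped with the collagenases here, had too many empty spots to be tested.

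**Figure D2:**
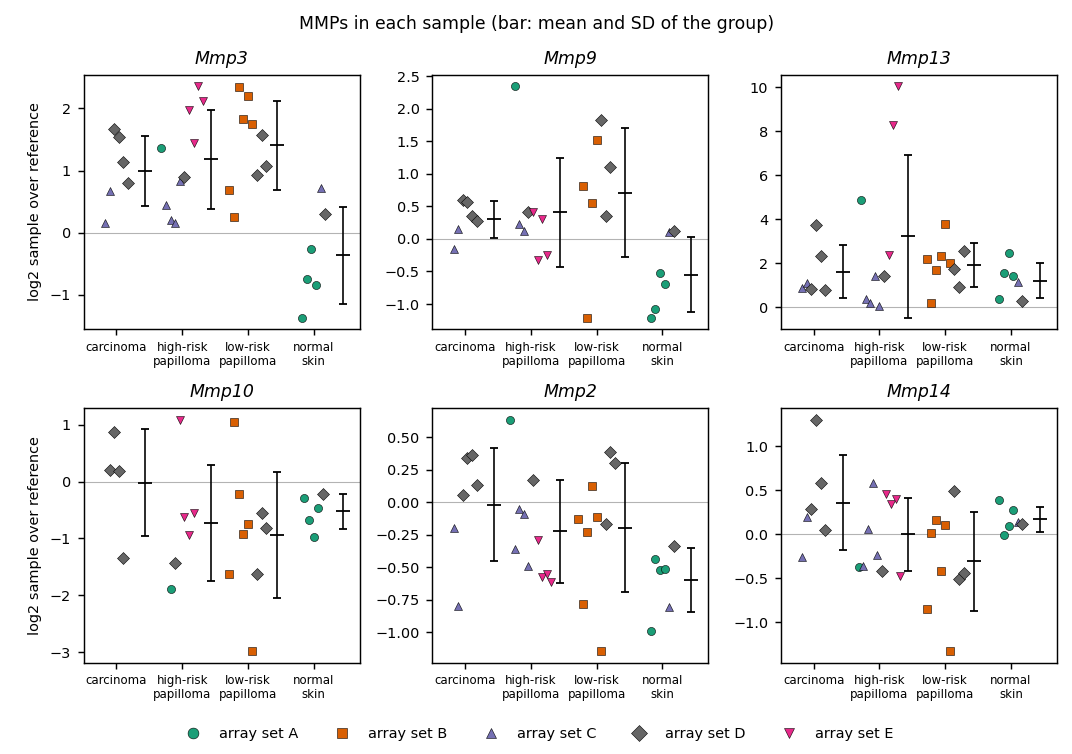
Log2 ratio of sample over reference of 6 MMPs in every sample, with carcinomas, high-risk papillomas, low-risk papillomas and normal skin from left to right, and the array set given by colour and shape. Black bars are the group mean and SD; Mmp3 lies between 0.15 and 2.36 in all tumours and mostly below 0 in normal skins, and Mmp13 reaches 10.05 in 1 high-risk papilloma of set E.

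The gelatinases Mmp2 and Mmp9 cut denatured collagen and the collagen of basement membranes. Mmp9, which neutrophils and other leukocytes store or make, had -0.15, 0.31 and 0.59 in carcinomas, -0.32, 0.27 and 2.34 in 8 high-risk papillomas, -1.21, 0.82 and 1.82 in 7 low-risk papillomas and -1.21, -0.61 and 0.12 in normal skins. Most tumours lay above most normal skins, and 1 low-risk papilloma was as low as the lowest normal skin. Its difference from normal skin was 0.84 ± 0.42 in carcinomas, 0.95 ± 0.39 in high-risk papillomas and 1.25 ± 0.40 in low-risk papillomas, and it passed in none (limma adjusted p = 0.450, 0.160 and 0.0529). Without low-risk papilloma 2, the low tumour, Mmp9 passed in low-risk papillomas. Normal skins differed by array set in Mmp9, with -1.21 to -0.52 in the 4 of set A, 0.11 in set C and 0.12 in set D. In set C the tumours had -0.15 to 0.22, on both sides of the normal skin. In set D they had 0.27 to 1.82, all above it. Among the markers of neutrophils S100a8 and S100a9, which keratinocytes of stressed epidermis also make, rose in both papilloma groups, and S100a9 in carcinomas, and none of the other neutrophil markers tested was called. The median difference of the 8 tested of 11 markers from normal skin was 0.11 in carcinomas, 0.15 in high-risk papillomas and 0.03 in low-risk papillomas. The mean of these 8 markers in a sample, which the called pair enters, was 0.48 to 1.32 in carcinomas, 0.27 to 2.29 in high-risk papillomas, 0.95 to 1.70 in low-risk papillomas and -0.08 to 0.74 in normal skins. The part of such cells in the levels of Mmp9 and Mmp3 was not tested, and in whole tissue more cells of a type and more RNA per cell cannot be told apart.

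Mmp2, which fibroblasts make, had -0.80, 0.09 and 0.36 in carcinomas, -0.62, -0.33 and 0.63 in high-risk papillomas, -1.15, -0.13 and 0.38 in low-risk papillomas and -0.99, -0.52 and -0.34 in normal skins. Its medians were higher in each tumour group than in normal skins while the ranges overlapped, and differences of 0.58 ± 0.25, 0.38 ± 0.23 and 0.41 ± 0.23 from normal skin did not pass in carcinomas, high-risk and low-risk papillomas (limma adjusted p = 0.345, 0.367 and 0.295). Mmp14, the membrane-type enzyme that activates proMMP2, had -0.26, 0.24 and 1.30 in carcinomas, -0.47, -0.09 and 0.59 in high-risk papillomas, -1.33, -0.42 and 0.49 in low-risk papillomas and -0.01, 0.13 and 0.39 in normal skins. All 6 carcinomas lay above the low-risk mean, with a difference of 0.67 ± 0.25 that did not pass (limma adjusted p = 0.172).

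Mmp20, enamelysin, is known for cutting the enamel matrix of teeth. It was measured in 6 carcinomas with -0.29, 0.07 and 0.47 (lowest, median, highest), 5 high-risk papillomas with -0.15, 0.05 and 0.59, 6 low-risk papillomas with 0.18, 0.41 and 1.46 and 5 normal skins with -1.73, -0.70 and 0.12. The low-risk papillomas lay above all normal skins. The difference was 1.39 ± 0.29, or 2.62-fold, in low-risk papillomas (limma adjusted p = 0.00517), while 0.89 ± 0.30 in high-risk papillomas and 0.86 ± 0.29 in carcinomas did not pass (adjusted p = 0.0885 and 0.174). With the array set as a block the low-risk difference was 0.88 (adjusted p = 0.761), and within set D the 3 low-risk papillomas had 0.34 to 0.97, against -0.64 in the normal skin. Of the remaining MMPs Mmp19 had an unadjusted p under 0.05 in low-risk papillomas against normal skin, at 0.61 (limma adjusted p = 0.120). Mmp16, a membrane-type enzyme, had one in carcinomas against each papilloma group, and passed in neither. Mmp7 (matrilysin), Mmp12 (the metalloelastase of macrophages) and Mmp17, Mmp23, Mmp24 and Mmp28 had none under 0.05 in any comparison.

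TIMPs were not higher in papillomas than in normal skin: all 4 had negative differences in high-risk papillomas (-2.35 to -0.08) and in low-risk papillomas (-1.91 to -0.26), and 1 of these 8 differences passed. Timp3, which is held in the matrix and blocks ADAM17 besides MMPs, had -2.38, -0.74 and 0.14 in carcinomas, -4.73, -2.91 and -0.21 in high-risk papillomas, -4.02, -2.16 and 0.23 in low-risk papillomas and -1.88, 0.05 and 1.43 in normal skins. High-risk papillomas lay below the reference throughout, and their highest values overlapped with the lower normal skins. Timp3 fell by 2.35 ± 0.70 on the log2 scale in high-risk papillomas, or 5.11-fold, with 10 of 10 tumours below the normal mean (limma adjusted p = 0.0435). The difference of -1.91 ± 0.71 in low-risk papillomas and of -0.80 ± 0.78 in carcinomas did not pass (adjusted p = 0.0954 and 0.824).

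The call of Timp3 rested on many single samples and on the array sets. It was lost without any 1 of normal skins 2 to 6 or of high-risk papillomas 1, 2, 3, 4, 8 and 10, with adjusted p-values up to 0.136 and differences of -2.69 to -2.03 over 16 such fits. In set A the high-risk papilloma had -3.35, against -1.01 to 1.43 in 4 normal skins. In set D it was -1.33, against -0.01 in the normal skin. In set C the 4 high-risk papillomas had -2.59 to -0.21, against -1.88 in normal skin 1, which turns the direction on that same single array. With the set as a block the difference was -1.36 (limma adjusted p = 0.566), and without set E, whose 4 high-risk papillomas had -4.73 to -3.22, it was -1.32 (adjusted p = 0.445). Fibroblasts are a source of Timp3, and the mean of the 9 tested of 10 fibroblast markers was -0.94 to 0.20 in carcinomas, -2.17 to -0.20 in high-risk papillomas, -2.26 to -0.24 in low-risk papillomas and -1.53 to -0.63 in normal skins. The median of these sample means was -0.97 in high-risk papillomas and -0.99 in normal skins, and the median difference of the markers between these groups was 0.41. Dcn (decorin) fell in high-risk papillomas against normal skin and was the only marker called. The part of such cells in Timp3 was not tested.

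**Figure D3:**
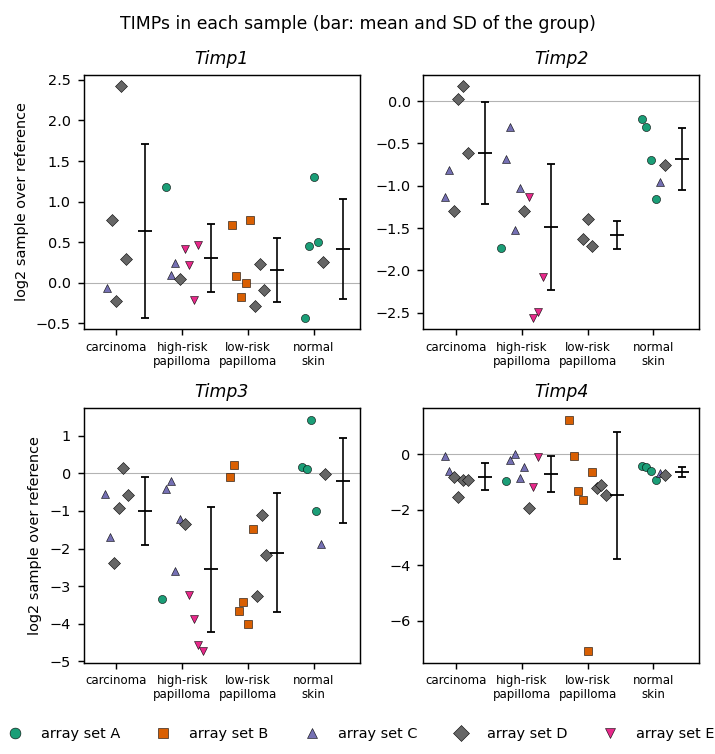
Log2 ratio of sample over reference of the 4 TIMPs in every sample, with carcinomas, high-risk papillomas, low-risk papillomas and normal skin from left to right, the array set by colour and shape, and the group mean and SD as black bars. Timp3 is lowest in high-risk papillomas of set E, at -4.73 to -3.22, and near or above 0 in most normal skins.

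Timp2, which also takes part in the activation of proMMP2 with Mmp14, had -1.29, -0.72 and 0.18 in carcinomas, -2.56, -1.41 and -0.31 in high-risk papillomas, -1.72, -1.62 and -1.39 in the 3 low-risk papillomas with a value and -1.15, -0.73 and -0.21 in normal skins. Carcinomas and normal skins lay at like levels and high-risk papillomas reached lower. The difference of carcinomas from high-risk papillomas was 0.87 ± 0.31, with 6 of 6 carcinomas above the high-risk mean (limma adjusted p = 0.305). In set C the 2 carcinomas had -1.13 and -0.82, within the -1.52 to -0.31 of the 4 high-risk papillomas. In set D the 4 carcinomas had -1.29 to 0.18, against -1.30 in the high-risk papilloma. The difference passed without set C. That left only carcinomas of set D, while 4 of the high-risk papillomas left were of set E, at -2.56 to -1.14, so set and group coincided in part. The difference of high-risk papillomas from normal skin was -0.80 ± 0.31 (limma adjusted p = 0.131). Timp1, the inducible inhibitor, had -0.23, 0.29 and 2.42 in 5 carcinomas, -0.21, 0.23 and 1.18 in 8 high-risk papillomas, -0.29, 0.04 and 0.78 in 8 low-risk papillomas and -0.43, 0.45 and 1.30 in 5 normal skins. Its groups overlapped, and its differences between groups were 0.48 or less in size. Timp4 did not pass in any comparison, and 1 low-risk papilloma at -7.09 gave its group an SD of 2.29.

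ADAM sheddases did not pass against normal skin. Adam10, which sheds Notch receptors and cadherins, had -0.03, 0.62 and 1.55 in carcinomas, -1.31, 0.01 and 1.28 in 9 high-risk papillomas, 0.03, 1.13 and 3.2 in 8 low-risk papillomas and -0.09, 0.21 and 0.58 in normal skins. Low-risk papillomas of set B had the higher values, from 1.11 to 3.2. High-risk papillomas differed from low-risk ones by -1.07 ± 0.34, with 8 of 9 below the low-risk mean (limma adjusted p = 0.113). Set D alone held both groups, and there the direction turned, with 1.28 in the high-risk papilloma, against 0.03 to 0.69 in the 3 low-risk papillomas. Adam17, which sheds tumour necrosis factor and TGF-alpha, had -0.08, 0.62 and 1.34 in carcinomas, -0.41, 0.08 and 0.91 in 9 high-risk papillomas, -1.24, 0.54 and 1.37 in low-risk papillomas and -1.55, -0.09 and 0.32 in normal skins. All 6 carcinomas lay above the normal mean, at a difference of 0.95 ± 0.35 (limma adjusted p = 0.223). In set D the 4 carcinomas had 0.26 to 1.34, against -0.05 in the normal skin. The direction turned in set C, with -0.08 and 0.24 in the 2 carcinomas, against 0.32 in normal skin 1. Adam8, which leukocytes make, had -0.20, 0.39 and 1.04 in 4 carcinomas, -0.59, 0.55 and 2.52 in 6 high-risk papillomas, -0.46, 0.34 and 1.74 in low-risk papillomas and -0.70, -0.32 and 0.19 in 5 normal skins. Its differences from normal skin, 0.69 ± 0.50, 1.20 ± 0.45 and 0.81 ± 0.41 in carcinomas, high-risk and low-risk papillomas, did not pass (limma adjusted p = 0.692, 0.123 and 0.240).

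Adam24, a protease known from mouse testis and sperm, rose in low-risk papillomas. It had -0.33, 0.83 and 1.27 in carcinomas, 0.02, 0.88 and 1.80 in 8 high-risk papillomas, 0.25, 1.61 and 3.34 in 8 low-risk papillomas and -0.47, 0.01 and 0.79 in normal skins. The low-risk papillomas lay above the normal mean in 8 of 8, with 1.65 ± 0.40 or 3.14-fold (limma adjusted p = 0.0121). In set D the low-risk papillomas had 1.56 to 1.63, against 0.79 in the normal skin, and with the set as a block the difference was 0.92 (adjusted p = 0.892). On the second design another Adam24 probe lay below the reference in all 10 papillomas, so the 2 probes of this gene do not show the same side of the reference.

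Other ADAMs of sperm differed in which side of the reference they lay on, and Adam3 and Adam2 lay below it in every sample. Adam3, a sperm protein needed for binding to the egg, had -5.59 to -2.83 in carcinomas, -7.43 to -2.10 in high-risk papillomas, -7.92 to -2.23 in low-risk papillomas and -5.45 to -2.77 in normal skins. Adam2, the beta subunit of fertilin, had -2.25, -0.96 and -0.60 in carcinomas, -3.91, -2.31 and -0.15 in high-risk papillomas, -3.49, -2.09 and -0.85 in low-risk papillomas and -2.17, -1.30 and -0.20 in normal skins. Carcinomas were above the low-risk mean in 6 of 6, by 1.31 ± 0.48 (limma adjusted p = 0.162). Markers of testis, with 4 of 5 tested, also lay below the reference in every sample, with means of -4.77 to -2.83 in carcinomas, -5.71 to -2.02 in high-risk papillomas, -5.43 to -3.29 in low-risk papillomas and -3.88 to -3.04 in normal skins. Adam30, also known from testis, had -0.11, 0.38 and 1.64 in carcinomas, -0.81, -0.07 and 1.87 in 7 high-risk papillomas, 0.87, 1.24 and 2.94 in low-risk papillomas and 0.16, 0.76 and 1.01 in normal skins. High-risk papillomas mostly lay below low-risk ones, at -1.34 ± 0.36, with 6 of 7 below the low-risk mean (limma adjusted p = 0.0643). This was the smallest p of any member between tumour groups. Set D alone held both groups, and there the high-risk papilloma had 1.87, within the 1.115 to 2.939 of the 3 low-risk papillomas. The 4 high-risk papillomas of set C, which held no low-risk papilloma, had -0.81 to 0.21. On the second design the 2 Adam30 probes had medians of -0.14 and -1.77 in unlabelled papillomas. Adam7 had 2 tested probes whose differences from normal skin were 0.38 and -2.72 in high-risk papillomas, so no direction is given for it.

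ADAMTS enzymes that cut aggrecan and versican had 1 call. Adamts5, aggrecanase-2, had -0.58, -0.32 and 0.02 in carcinomas, -1.03, -0.10 and 0.38 in high-risk papillomas, -1.02, 0.01 and 0.11 in 8 low-risk papillomas and -1.44, -0.97 and -0.29 in normal skins. Most tumours lay above most normal skins, and high-risk papillomas of set E, at -1.03 to -0.64, lay within the range of normal skins. The difference was 0.78 ± 0.23, or 1.72-fold, in low-risk papillomas, with 7 of 8 above the normal mean (limma adjusted p = 0.0346). It did not pass in high-risk papillomas (0.61 ± 0.22, adjusted p = 0.103) or carcinomas (0.62 ± 0.25, adjusted p = 0.288). The low-risk call was lost without any 1 of normal skins 3 to 6 or of low-risk papillomas 5, 7 and 10, with adjusted p-values up to 0.114, and with the set as a block, at 0.54 (adjusted p = 0.790).

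Adamts10, which binds fibrillin and is mutated in a human connective tissue syndrome, was the member with the smallest p between carcinomas and either papilloma group. It had -1.96, -1.35 and -0.96 in carcinomas, -1.37, -0.45 and 0.46 in high-risk papillomas, -2.09, -0.41 and 1.15 in low-risk papillomas and -1.55, -1.27 and -0.89 in normal skins. Carcinomas and normal skins lay at like low levels with a narrow range. Papillomas spread more widely, mostly upward, and low-risk papilloma 9, at -2.09, was the lowest of all samples. Carcinomas differed from high-risk papillomas by -1.01 ± 0.35 and from low-risk ones by -0.98 ± 0.36, 6 of 6 below each mean, and neither passed (limma adjusted p = 0.295 and 0.159). Both passed after the spread of the arrays was made equal. Adamts1, which cuts versican and aggrecan, had -0.21, 0.03 and 0.86 in 5 carcinomas, -0.34, 0.08 and 0.61 in 7 high-risk papillomas, -0.22, 0.47 and 2.53 in low-risk papillomas and 0.03, 0.50 and 0.87 in 4 normal skins. Its groups overlapped, with differences from normal skin of -0.22 ± 0.46, -0.41 ± 0.43 and 0.27 ± 0.41 in carcinomas, high-risk and low-risk papillomas (limma adjusted p = 0.956, 0.649 and 0.745).

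**Figure D4:**
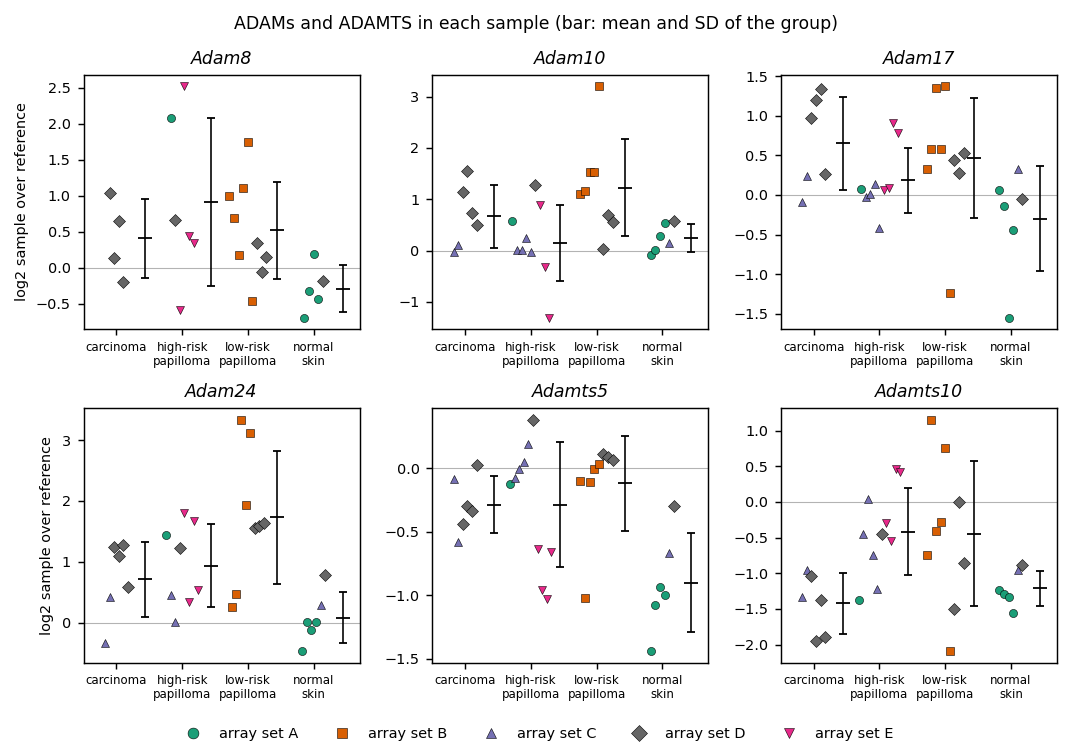
Log2 ratio of sample over reference of 4 ADAM and 2 ADAMTS genes in every sample, with carcinomas, high-risk papillomas, low-risk papillomas and normal skin from left to right, the array set by colour and shape, and the group mean and SD as black bars. Adamts10 lies between -1.96 and -0.89 in carcinomas and normal skins and between -2.09 and 1.15 in papillomas. In Adam10, 1 low-risk papilloma stands apart at 3.2.

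Between tumour groups no member passed. Limma called 0 of 51 between high-risk and low-risk papillomas, where 0.667% of all probes passed (0.354% higher and 0.312% lower), with 6 members at an unadjusted p under 0.05. It called 0 between carcinomas and low-risk papillomas, against 1.12% of all (0.349% higher and 0.772% lower), with 10 at an unadjusted p under 0.05, and 0 between carcinomas and high-risk papillomas, against 0.0423% (0.0212% in each direction), with 6. At an unadjusted p under 0.05 the members' shares were 11.8%, 19.6% and 11.8%, where those of all probes were 17.3%, 16.1% and 10.5%. The median differences of the members were -0.13, 0.06 and 0.20 in these comparisons. All 4 TIMPs were positive in carcinomas against low-risk papillomas, at 0.48 to 1.12, where 49.5% of all probes were positive, and none passed. Timp2 had values in only 3 low-risk papillomas, all of set D. The low-risk mean of Timp4, -1.48, was drawn down by 1 tumour at -7.09, and the carcinoma mean was -0.82. Without high-risk papilloma 5 or without low-risk papilloma 6, Adam10 and Adam30 passed between high-risk and low-risk papillomas. Both tumours were of set D, the only set that held both groups. High-risk papilloma 5 was the only high-risk one there, at 1.28 in Adam10 and 1.87 in Adam30, above the low-risk mean of each. Without it no set held both groups, so risk group and array set could not be told apart. Low-risk papilloma 6 had the lowest low-risk value of Adam10, at 0.03. Members varied somewhat more within groups than probes at large, with a median residual SD of 0.71, against 0.61 over all.

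Of genes that activate these proteases, hold them in check, carry the shed ligands or bind AP-1 and ETS sites, 26 of 34 were tested. In low-risk papillomas 3 of 26 rose and none fell against normal skin, where 3.97% of all probes were called higher. They were Plaur, the urokinase receptor, which focuses plasminogen activation at the cell surface (0.89 ± 0.24, limma adjusted p = 0.0227), Hbegf, an epidermal growth factor receptor ligand that ADAMs shed (1.73 ± 0.51, adjusted p = 0.0323), and the transcription factor Ets1 (1.08 ± 0.27, adjusted p = 0.0124). In high-risk papillomas 2 of 26 rose, where 2.59% of all were called higher: Tgfa, a ligand shed by ADAM17 (1.19 ± 0.32, limma adjusted p = 0.0254), and Plg, plasminogen (3.79 ± 1.10, adjusted p = 0.0383). Hbegf had 0.17, 0.83 and 3.46 in carcinomas, 0.17, 1.57 and 3.26 in high-risk papillomas, 0.73, 1.34 and 4.05 in low-risk papillomas and -0.45, -0.08 and 0.54 in normal skins, and its low-risk papillomas lay above all normal skins. Tgfa had 1.18, 1.395 and 1.96 in carcinomas, 1.15, 1.92 and 3.73 in high-risk papillomas, 0.28, 1.16 and 1.99 in low-risk papillomas and 0.64, 0.84 and 1.96 in normal skins, with the groups overlapping. Plg had 0.26, 0.69 and 4.87 in carcinomas, 2.54, 4.81 and 12.69 in high-risk papillomas, 0.44, 2.17 and 4.49 in low-risk papillomas and -0.06, 0.78 and 5.66 in normal skins, so the highest normal skin lay within the high-risk range. No partner passed elsewhere. With the array set as a block none of these 5 passed, with differences of 0.71 for Plaur, 0.04 for Hbegf, 1.28 for Ets1, 0.63 for Tgfa and 1.90 for Plg (limma adjusted p = 0.786, 0.998, 0.486, 0.517 and 0.630). The AP-1 factors tested, Fos, Fosb, Fosl1 and Jun, had negative differences from normal skin in both papilloma groups. These were -0.75 to -0.08 in low-risk and -0.35 to -0.10 in high-risk papillomas, and none passed. In carcinomas Fos and Fosb had positive differences and Fosl1 and Jun negative ones.

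The 10 papillomas without a risk label carried 113 member probes for 69 genes on the second design, and are given by range and median since their group is unknown. Of 64 member probes measured in all 10, 8 lay above the reference in every sample and 16 below it in every sample. Mmp3 had 0.19, 1.35 and 2.37 (lowest, median, highest) at the probe measured in all 10 and -0.08, 0.42 and 2.55 at a second probe with 7 values. Mmp13 had 0.95, 2.74 and 5.54 at one probe and 0.38, 2.14 and 8.98 at the other, all above the reference, and Mmp10 had 0.09, 1.37 and 8.597 in 8 samples. These 3 genes of the chromosome 9 run lay mostly on the side of the reference where Mmp3 and Mmp13 of the labelled papillomas lay, while Mmp10 of the labelled papillomas had lain mostly below it. Mmp20 had 0.82, 1.24 and 5.78 in 8 samples. Mmp1a and Mmp1b, untested on the first design, had medians of 2.31 (9 samples, -3.89 to 9.36) and 1.76 (6 samples, 0.06 to 7.75).

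Timp3 lay below the reference in 10 of 10 unlabelled papillomas at both of its probes, with -4.85, -3.497 and -2.07 at one and -4.67, -3.13 and -1.28 at the other. Timp2 was below it in 10 of 10 as well, at -3.24, -1.71 and -0.40, while Timp1 had -1.08, 0.37 and 0.92. Timp3 and Timp2 also had medians below the reference in labelled papillomas, on other probes. Timp2 lay below it in all normal skins as well, at -1.15 to -0.21. The second design held no normal skin, so these values show no fall from it. Adam8 was above the reference in 10 of 10 at both probes, with medians of 2.44 and 2.09. Its highest value, 13.13, came from 1 probe in unlabelled papilloma 4, where the other probe had 2.39. In unlabelled papilloma 6 the same probes had 4.92 and 0.01. Adamts9, an ADAMTS that cuts versican, had 1.09, 2.73 and 4.55, above the reference in 10 of 10. The Adamts9 probe of the first design lay on both sides of the reference. It had -0.24 to 0.63 in high-risk papillomas, -0.99 to 0.61 in low-risk papillomas and -0.23 to 0.69 in normal skins. Adamts4, aggrecanase-1, which was only on the second design, had -1.22, 0.12 and 1.07.

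Probes of the same gene did not always lie on the same side of the reference. Mmp28, epilysin, an MMP of keratinocytes, had medians of 3.504 and -0.24 at its 2 probes. Adamts10 had 0.19 and -1.19. The medians of Adamts8, 4.08 and 0.11, lay on the same side but far apart. Adam24 had -4.92, -3.30 and -2.59, all below the reference, where the first design's probe had lain above it in labelled papillomas. Levels of such genes hold for a probe rather than for the gene.

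**Figure D5:**
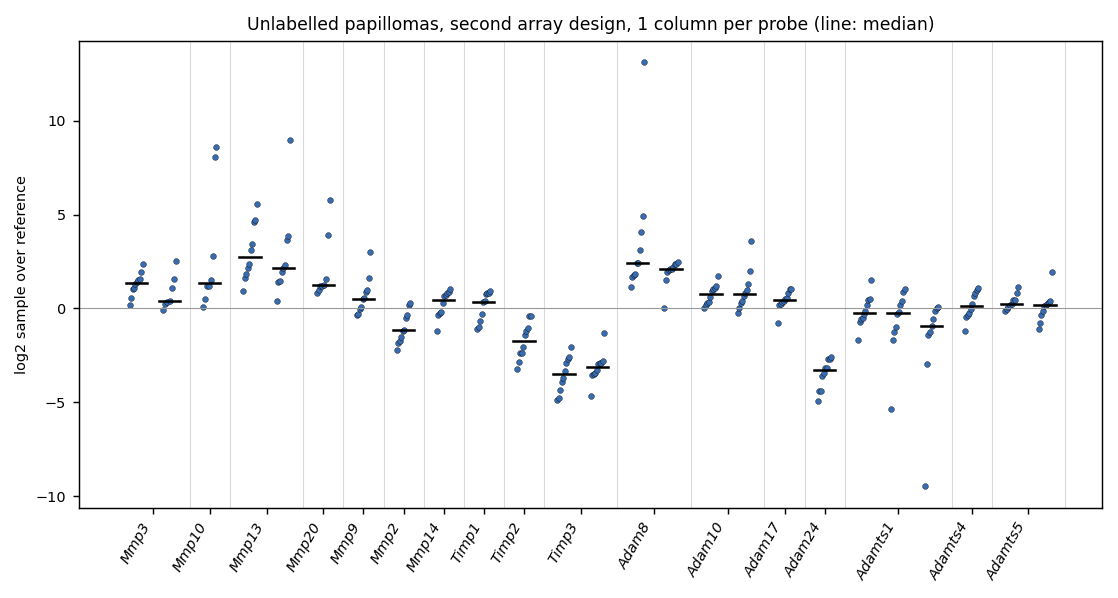
Log2 ratio of sample over reference in the 10 papillomas without a risk label, second array design, for 17 members with 1 column of points per probe and the median as a line. Mmp3, Mmp13, Mmp20 and Adam8 lie mostly above 0, and Timp2, both Timp3 probes and Adam24 lie below 0 in all samples.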

How the data were processed

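Values were log2 ratios of the 2 channels of each array, as deposited by the authors; whether the scale is log2 was read from the range of the values, and scanner data were not used here. Per the labels, Cy5 held the reference and Cy3 the sample on every array but low-risk 3, where dyes were swapped; the software that made the ratios is not given in the sources used here. Signs of the other arrays were turned, arrays were centred on their medians, and low-risk arrays 1 and 3 were averaged, giving 31 replicates. Of member symbols, all 72 are current in RefSeq, and 1 probe with several symbols was left out.

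A probe was tested when measured in at least 3 replicates of each group and 70% of all, with 1 probe per symbol, or 18904 probes. Limma 3.58.1 in R 4.3.3 fitted 1 model of the 4 groups, and 6 comparisons were made. On simulated data with 200 of 18904 probes changed, 77% to 84% of log2 changes of 2 and 21% to 42% of changes of 1 were found, and 2 to 7 unchanged probes were called per comparison. The simulated noise was independent between probes and samples and had no array sets. These figures therefore do not cover false calls that come from sets coinciding with groups.

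The members, gene lists and tests were chosen with earlier results of these data known. Genes named are members past the threshold in any comparison, the 2 with the smallest p in each, and 15 fixed members (Mmp2, Mmp3, Mmp9, Mmp10, Mmp13, Mmp14, Timp1 to Timp3, Adam8, Adam10, Adam17, Adamts1, Adamts4, Adamts5); other genes given with values were chosen after their values were seen. Of the marker lists, those of macrophages had no call. Against normal skin, Krt15 fell in each tumour group, while the median difference of the 6 keratinocyte markers was -0.25 in carcinomas, 0.72 in high-risk and 0.32 in low-risk papillomas. Acta1 of muscle fell in both papilloma groups. Of 3 adipocyte markers Lep fell in carcinomas and high-risk papillomas and Fabp4 rose in low-risk papillomas, with medians of 1.91 in carcinomas, -0.51 in high-risk and 0.31 in low-risk papillomas. Markers of T cells, mast cells, endothelium and red cells had calls in at least 1 comparison, Tnp2 of testis had 1 in carcinomas, and their part in the members' levels was not tested. Array sets came from average-linkage clustering of empty probes. Same-numbered samples correlated at a median of -0.01 over 37 pairs and different-numbered ones at 0.01 over 317. The main model did not pair samples by number, and these medians cannot exclude that some samples are paired. Alternatives were other scalings, filters, probe summaries, treatments of the swapped array, blocks, variance models and left-out samples. Figures used matplotlib 3.10.9, numpy 2.4.6 and pandas 2.3.3.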

Additional observations from a re-analysis of the deposited data

Results flagged for a closer look

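Of 75 groups of 4 to 10 samples of the named members, 6 held a sample that stood apart from the rest by Dixon's critical value, which chance exceeds in about 1 in 20 groups. Low-risk papilloma 9 was high in Adam10 at 3.2, with the nearest tumour at 1.53, and low in Adam17 at -1.24, with the nearest at 0.27. Low-risk papilloma 2 was low in Adamts5 at -1.02, with the nearest at -0.11. High-risk papilloma 10, the one tumour in the array set that holds 4 normal skins, was high in Mmp9 at 2.34, with the nearest at 0.41. Carcinoma 1 was low in Adam2 at -2.25, with the nearest at -1.16. Normal skin 1 was low in Adam30 at 0.16, with the nearest normal skin at 0.74.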

How the results depend on the processing

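Counts of members past the threshold, of 51 unless stated, moved with the processing; the cause was not tested. Carcinomas against normal skin had 1 after quantile or scale normalization, with only those groups in the fit, without the near-identical pair, or without set C (Mmp3 each time), and 6 with array weights. High-risk papillomas against normal skin had 4 after quantile or scale normalization, 1 with the swapped array as its own replicate, with only those groups or without set E, 10 with array weights, 5 without set C, and 0 with the array set or the range of database numbers as a block, within set D (45 members) or within set C (40 members). It was 8 within set A (48 members). Within a set these comparisons have arms of 1 sample: 1 normal skin in sets C and D and 1 high-risk papilloma in sets A and D. The lone sample is assumed to vary like the others of its set, so a count of 0 there does not show that a call is absent. Low-risk papillomas against normal skin had 7 after quantile normalization, 1 with only probes measured in all replicates (11 members) or with only those groups, 2 without the swapped array, 14 with array weights, and 0 with the set as a block or within set D (46 members). High-risk against low-risk papillomas had 2 with array weights. Carcinomas against low-risk papillomas had 1 after quantile or scale normalization (Adamts10) and 6 with array weights. Carcinomas against high-risk papillomas had 1 after scale normalization or with array weights (Adamts10 both times) and 1 without set C (Timp2). Alternatives without set C or E, within set A, and all of those for partner genes were chosen after seeing the data.

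With a replicate block the count in high-risk papillomas against normal skin was 1 (Mmp3), and the calls of Adamts5, Adam24, Timp3, Ets1 and Plg were lost. Within set C, against normal skin 1 alone, differences of high-risk papillomas from normal skin turned sign for Mmp3 (-0.315), Timp3 (0.769), Plg (-1.56) and Tgfa (-0.298). Leaving out 1 replicate at a time gave 3 to 7 members in low-risk papillomas against normal skin (7 without low-risk papilloma 2), 0 to 3 in high-risk papillomas (0 without normal skin 3), 0 to 2 in carcinomas (2 without normal skin 1), 0 to 2 between high-risk and low-risk papillomas, and 0 throughout in the other 2 comparisons. Mmp3, Mmp20 and Adam24 in low-risk papillomas passed in 15 of 15 such fits, as did Ets1. The calls were lost for Plaur without normal skin 3, 4 or 6, for Hbegf without normal skins 3 to 6 or low-risk papillomas 4, 5 or 8, for Tgfa without normal skins 2 to 6, and for Plg without normal skins 2 to 6 or high-risk papillomas 3, 4, 8 or 10.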
